A study of Oryza sativa with 11 samples.

Results

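The JAZ genes examined here are JAZ5 to JAZ14, which are 10 of the 55986 rice loci in the deposited table. The members were fixed by locus identifier, in this order: LOC_Os04g32480, LOC_Os03g28940, LOC_Os07g42370, LOC_Os09g26780, LOC_Os03g08310, LOC_Os03g08330, LOC_Os03g08320, LOC_Os10g25290, LOC_Os10g25230 and LOC_Os10g25250. The rule uses no measured value. Of the 10 genes, 9 reached 1 FPKM (fragments per kilobase of transcript, scaled to library size) in at least 2 libraries and were tested, and JAZ7 did not.

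The study compared anthers of ostie1-1, a mutant of the transcriptional repressor gene OsTIE1, with wild-type (WT) anthers, and its title concerns anther dehiscence and jasmonate synthesis. RNA was sequenced from 3 ostie1-1 and 3 WT libraries at anther stage 10, and from 2 ostie1-1 and 3 WT libraries at stage 12. Plants were field grown and untreated, and whole anthers were picked, so fewer cells of a type and less RNA per cell cannot be told apart. The labels call the libraries biological replicates, name neither the lesion in ostie1-1 nor a second allele, and give no cultivar. The OsTIE1 transcript itself was not analysed here.

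JAZ proteins repress responses to the plant hormone jasmonate. They hold MYC2-type transcription factors inactive, in part by recruiting the adaptor NINJA and TOPLESS-type corepressors. When jasmonoyl-isoleucine accumulates, it joins JAZ proteins to the F-box receptor COI1, the JAZ proteins are degraded and MYC2 is released. Many JAZ genes are themselves MYC2 targets, so their transcripts commonly rise after jasmonate signalling and restore repression. In the anther, jasmonate is known for its part in late stamen development, dehiscence and the opening of the flower.

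WT stage 10 replicate 3 stood apart from its group. Across tested genes its log2 levels correlated with those of WT replicates 1 and 2 at r of 0.79 and 0.80, against 0.98 between replicates 1 and 2, and with the 3 ostie1-1 stage 10 libraries at 0.88 to 0.90. The summed level of 10 green-tissue genes was 26.0 to 63.0 FPKM in ostie1-1 at stage 10, against 96.2 and 79.5 FPKM in WT replicates 1 and 2 and 1663 FPKM in WT replicate 3. In that library 7 of the 10 JAZ genes stood above both other WT stage 10 libraries, 1 stood below (JAZ9) and 2 stood between them or level with the lower. The part of this library's makeup in the JAZ values was not tested, and the genotype differences at stage 10 and the calls between WT stages are given with and without it. Of 11 tapetum and microspore genes, which mark anthers, 10 were tested, and the list summed to 2387 FPKM or more in every library.

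Differences are log2 fold changes of log2(scaled FPKM + 1), from a limma fit over all 11 libraries and 21279 loci. A gene was called at a Benjamini-Hochberg adjusted p below 0.05. The added 1 understates the change of genes near 1 FPKM.

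JAZ9 was the most abundant of the 10 transcripts in each group's mean, and JAZ7 the least. JAZ9 averaged 1156 ± 512 FPKM in ostie1-1 (SD, n = 2) and 942 ± 148 FPKM in WT (n = 3) at stage 12. At stage 10 it averaged 290 ± 93.6 FPKM in ostie1-1 and 418 ± 190 FPKM in WT (n = 3 each). JAZ13 stood next in 3 of the groups, at 66.9 ± 21.8 FPKM in stage 12 WT, 234 ± 63.2 FPKM in stage 10 ostie1-1 and 223 ± 217 FPKM in stage 10 WT. In stage 12 ostie1-1 anthers JAZ14, at 117 ± 31.8 FPKM, stood between JAZ9 and JAZ13, which was at 67.8 ± 0.0799 FPKM (n = 2).

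Below these, the order of the means in stage 10 ostie1-1 anthers was JAZ8, JAZ11, JAZ10, JAZ14, JAZ12, JAZ6, JAZ5 and JAZ7. In stage 10 WT anthers it was JAZ10, JAZ8, JAZ11, JAZ14, JAZ12, JAZ5, JAZ6 and JAZ7. Most neighbours in these orders overlapped between libraries. In stage 10 ostie1-1 the neighbours that did not overlap were JAZ13 and JAZ8, JAZ10 and JAZ14, and JAZ5 and JAZ7. In stage 10 WT these were JAZ13 and JAZ10, and JAZ6 and JAZ7.

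At stage 12 the ostie1-1 order after JAZ9, JAZ14 and JAZ13 was JAZ10, JAZ12, JAZ8, JAZ11, JAZ6, JAZ5 and JAZ7, and JAZ12 overlapped both of its neighbours, as JAZ6 overlapped JAZ5. The other neighbours in that group were separate in its 2 libraries. In stage 12 WT the order after JAZ9 and JAZ13 was JAZ14, JAZ12, JAZ10, JAZ8, JAZ11, JAZ5, JAZ6 and JAZ7. There JAZ9 stood apart from JAZ13, JAZ14 from JAZ12, JAZ5 from JAZ6 and JAZ6 from JAZ7, and the remaining neighbours overlapped.

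**Figure D1:**
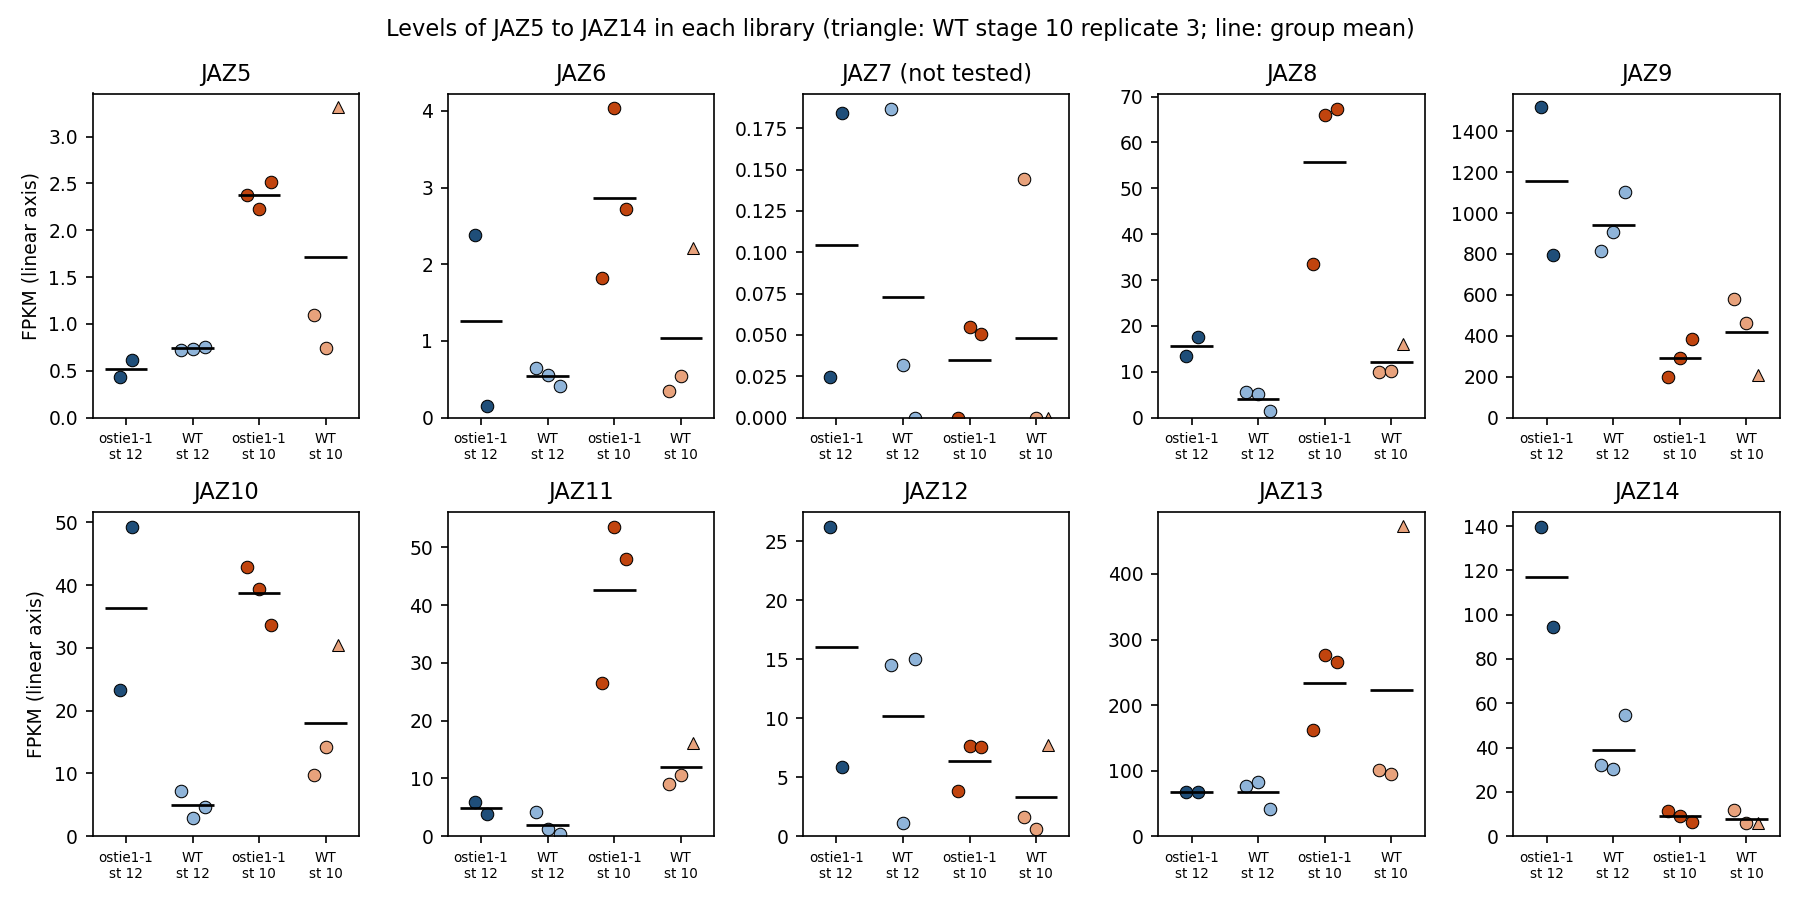
Level of each JAZ gene in FPKM (linear axis, own scale per panel) in the 11 libraries; points are libraries, lines are group means, and the triangle is WT stage 10 replicate 3. JAZ8 and JAZ10 stand higher in ostie1-1 than in WT at both stages, and the triangle is the highest point of its group for 7 genes.

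The makeup of the family's summed level differed between libraries. JAZ9 made up 84.5% and 76.8% of the summed FPKM of the 10 genes in stage 12 ostie1-1 anthers, against 85.2%, 88.0% and 90.3% in stage 12 WT anthers. At stage 10 it made up 40.9%, 38.7% and 47.0% in ostie1-1, against 80.0%, 77.3% and 27.4% in WT, the last being WT replicate 3. JAZ13 made up 33.6%, 36.9% and 32.4% in stage 10 ostie1-1 and 13.9%, 15.7% and 61.9% in stage 10 WT. Apart from WT replicate 3, then, JAZ9 held a smaller share and JAZ13 a larger share in each stage 10 ostie1-1 library than in each stage 10 WT library.

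The summed level of all 10 genes was 481, 747 and 817 FPKM in stage 10 ostie1-1 and 727, 601 and 764 FPKM in stage 10 WT. The groups overlapped. Without JAZ9, the other 9 summed to 284, 458 and 433 FPKM in stage 10 ostie1-1 and 145, 136 and 555 FPKM in stage 10 WT, where the highest value was that of WT replicate 3. At stage 12 the same sum was 279 and 240 FPKM in ostie1-1 and 142, 124 and 119 FPKM in WT, with no overlap. The sum without JAZ9 was thus higher in both ostie1-1 libraries than in each WT library at stage 12, a pattern that 17% of single tested loci showed. Of it JAZ14 held 139.7 and 94.7 FPKM in ostie1-1, against 32.0, 30.2 and 54.5 FPKM in WT. With JAZ9 included, the stage 12 sum was 1798 and 1034 FPKM in ostie1-1 and 957, 1030 and 1224 FPKM in WT, and the groups overlapped.

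**Figure D2:**
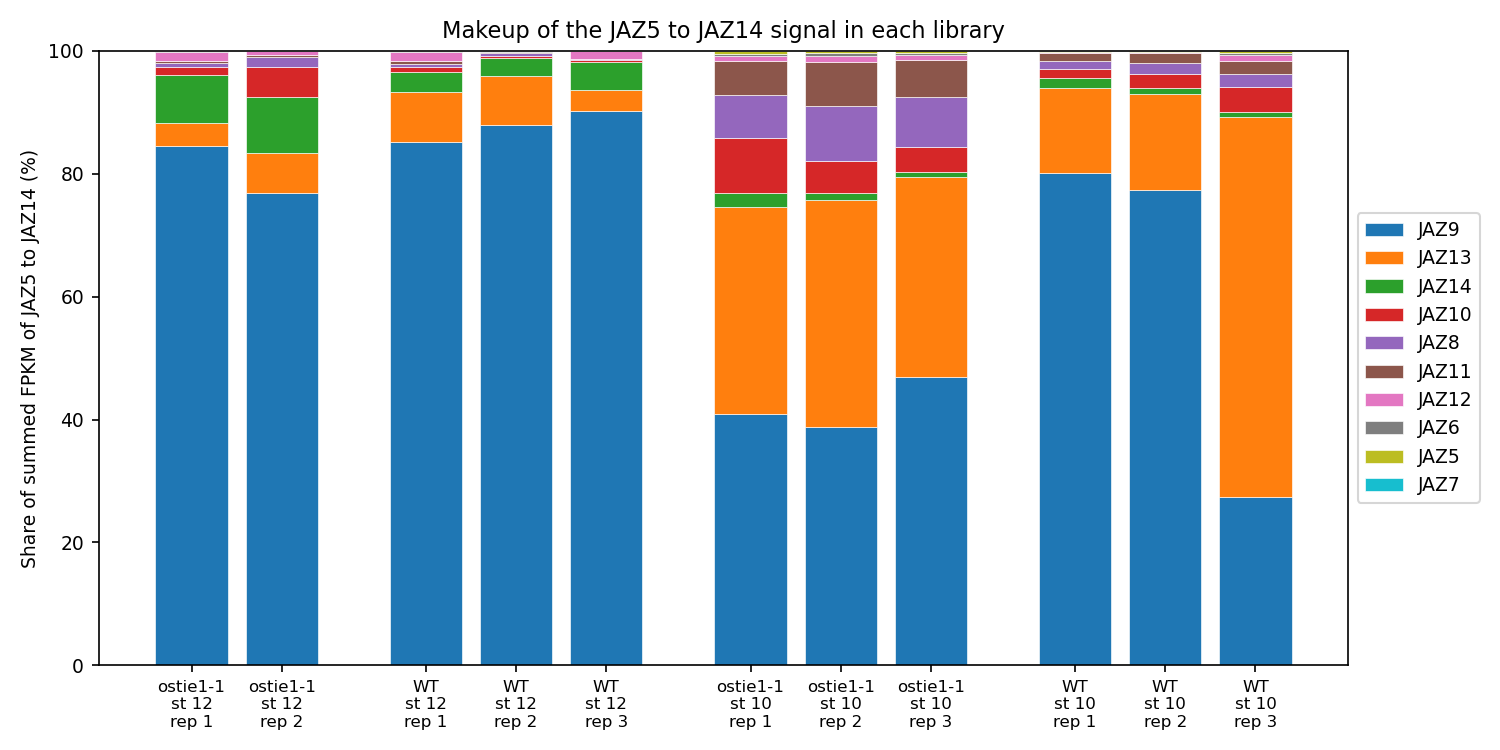
Share of each JAZ gene in the summed FPKM of JAZ5 to JAZ14 (%, stacked bars, 1 bar per library). JAZ9 takes 38.7% to 47.0% in stage 10 ostie1-1 and 76.8% or more in every other library except WT stage 10 replicate 3, where it takes 27.4%.

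At stage 10, JAZ8 was the member that passed the test between ostie1-1 and WT anthers. It was higher in ostie1-1, as were 2.35% of all tested loci, and 8 of the 9 tested members did not pass. No member was called lower, against 0.555% of loci. The fold change was positive for 8 members and negative for JAZ9, with a median of 1.04 on the log2 scale over the 9 members and -0.01 over all loci. JAZ8, JAZ10 and JAZ11 had FPKM values in ostie1-1 that were all above those in WT, a pattern that 11.4% of tested loci showed in this direction. Without WT replicate 3 the count was 6 of 9 members, JAZ5, JAZ6, JAZ8, JAZ10, JAZ11 and JAZ13, all higher, against 18.8% of loci higher and 14.9% lower.

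At stage 12, JAZ8, JAZ10 and JAZ14 rose in ostie1-1 relative to WT, which is 3 of 9 tested members against 3.22% of all loci called higher. No member was called lower, against 0.305% of loci, and 6 did not pass. The median fold change was 1.05 over the 9 members and 0.05 over all loci, and JAZ5 had the sole negative value. The FPKM values of the same 3 genes were all above WT, as for 17% of loci, and those of JAZ5 were all below, as for 31.8%. A setting without WT stage 10 replicate 3, which enters the shared estimate of spread, added JAZ11 at 1.45 (adjusted p = 0.0477, limma) for 4 of 9, against 10.9% of loci higher and 5.65% lower.

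**Figure D3:**
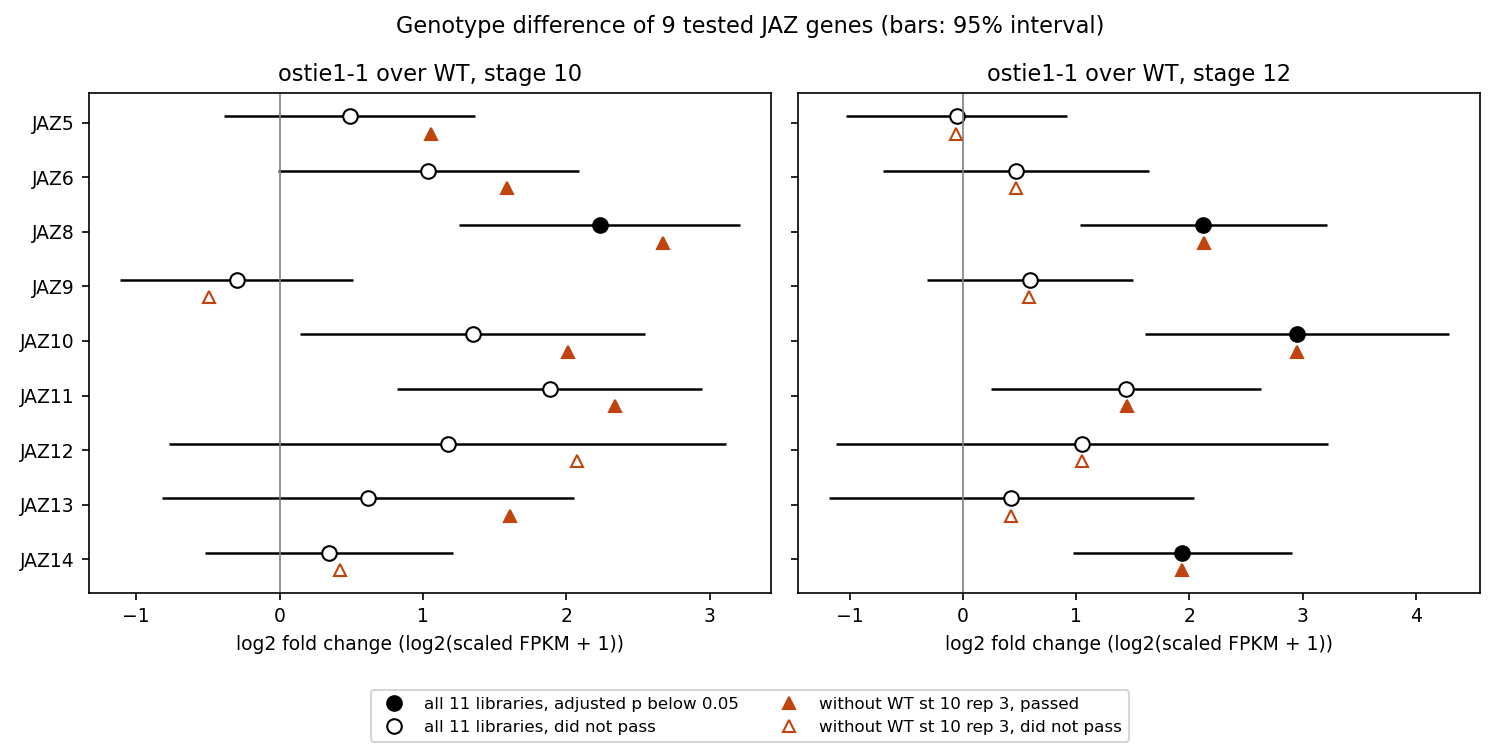
Log2 fold change of ostie1-1 over WT for the 9 tested JAZ genes at stage 10 (left) and stage 12 (right), with 95% intervals; filled marks passed at an adjusted p below 0.05, and triangles are values without WT stage 10 replicate 3. Leaving that library out moves the stage 10 values of JAZ5, JAZ6, JAZ10, JAZ11 and JAZ13 past the threshold and leaves the stage 12 fold changes nearly in place.

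JAZ8, on chromosome 9 by its locus identifier, is known in rice as a repressor of jasmonate-dependent defence. At stage 10 it stood at 33.6, 66.0 and 67.4 FPKM in ostie1-1, against 9.91, 10.1 and 16.1 FPKM in WT. The groups did not overlap, and even WT replicate 3 lay below the lowest ostie1-1 library. The difference on the log2 scale was 2.23 (SE 0.44, 95% interval 1.25 to 3.21, adjusted p = 0.0242, limma) and 2.68 without WT replicate 3 (adjusted p = 0.00112). The call was lost without ostie1-1 replicate 2 (adjusted p = 0.124) or 3 (0.0823), without WT replicate 1 (0.113) or 2 (0.111), with no filter on low values (0.0551) and with the 6 stage 10 libraries alone (0.0841).

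JAZ8 stood at 13.5 and 17.5 FPKM in ostie1-1 at stage 12, against 5.49, 5.19 and 1.48 FPKM in WT. Again no library of one genotype reached the other. This corresponded to 2.12 on the log2 scale (SE 0.50, 95% interval 1.03 to 3.22, adjusted p = 0.0420, limma). This call held in 6 of 21 alternative settings, with adjusted p between 0.00711 and 0.269, and among the 11 settings that leave out a library it passed in the one without WT stage 10 replicate 3. With unscaled FPKM it was 1.82 (adjusted p = 0.0759).

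JAZ10 lies with JAZ9 and JAZ11 in a cluster on chromosome 3, and its overexpression is known to enlarge rice grains. At stage 12 it stood at 23.3 and 49.3 FPKM in ostie1-1, against 7.14, 2.82 and 4.71 FPKM in WT. The lower ostie1-1 library was above each WT library. Its log2 fold change, 2.95 (SE 0.61, 95% interval 1.60 to 4.29, adjusted p = 0.0257, limma), was the largest among the members at this stage. It passed in 17 of 21 alternatives, and was lost without ostie1-1 replicate 1 (adjusted p = 0.0589) or 2 (0.229) and without WT replicate 2 (0.102) or 3 (0.0658) of stage 12.

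At stage 10 JAZ10 stood at 43.0, 39.4 and 33.6 FPKM in ostie1-1, against 9.66, 14.1 and 30.4 FPKM in WT. The groups did not overlap in FPKM, with WT replicate 3 closest to ostie1-1, but they overlapped once FPKM was scaled between libraries. The fitted difference was 1.35 on the log2 scale (95% interval 0.15 to 2.55, adjusted p = 0.221, limma), and without WT replicate 3 it was 2.02 (adjusted p = 0.00509). The value stayed positive in all 21 alternatives (0.88 to 2.02). It passed without WT replicate 3 and under array quality weights (1.79, adjusted p = 0.000822, limma). Those weights gave WT replicate 3 the lowest weight, 0.107, so they are not a setting separate from leaving that library out. Under them 10803 of 21279 loci were called at stage 10.

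JAZ11, in the same chromosome 3 cluster, has been tied in rice to the response to phosphate starvation. It stood at 26.5, 53.5 and 48.1 FPKM in stage 10 ostie1-1, against 9.01, 10.5 and 16.2 FPKM in stage 10 WT. No libraries overlapped. JAZ11 thus had a log2 fold change at 1.88 (SE 0.48, 95% interval 0.82 to 2.95, adjusted p = 0.0673, limma) and 2.34 without WT replicate 3 (adjusted p = 0.00350). At stage 12 it stood at 5.88 and 3.85 FPKM in ostie1-1, against 4.22, 1.27 and 0.367 FPKM in WT. These groups overlapped in FPKM, but once scaled both ostie1-1 libraries were above each WT library. The log2 fold change was 1.44 (95% interval 0.25 to 2.63, adjusted p = 0.179, limma).

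JAZ9, the third gene of that cluster, binds NINJA and a bHLH factor in rice and affects salt tolerance. It stood at 197, 289 and 384 FPKM in stage 10 ostie1-1, against 582, 464 and 209 FPKM in stage 10 WT. The overlap came from WT replicate 3, which lay among the ostie1-1 libraries. JAZ9 had a log2 fold change at -0.30 (95% interval -1.11 to 0.52, adjusted p = 0.681, limma) and -0.49 without WT replicate 3 (adjusted p = 0.321). At stage 12 the values were 1519 and 794 FPKM in ostie1-1 and 816, 906 and 1104 FPKM in WT. The ostie1-1 libraries lay on either side of all WT libraries, and the log2 fold change of 0.59 did not pass (adjusted p = 0.446).

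JAZ14 carries a chromosome 10 identifier near those of JAZ12 and JAZ13. At stage 12 it stood at 139.7 and 94.7 FPKM in ostie1-1, against 32.0, 30.2 and 54.5 FPKM in WT. Both ostie1-1 libraries were above each WT library. JAZ14 differed by 1.94 on the log2 scale (SE 0.44, 95% interval 0.97 to 2.90, adjusted p = 0.0371, limma). The call held in 10 of 21 alternatives, reaching 0.156 without ostie1-1 replicate 1, 0.140 without ostie1-1 replicate 2, 0.114 and 0.138 without WT replicate 1 or 2 of stage 12, and 0.0670 without ostie1-1 replicate 2 of stage 10. With unscaled FPKM the fold change was 1.59 (adjusted p = 0.0764).

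At stage 10 JAZ14 stood at 11.4, 9.05 and 6.37 FPKM in ostie1-1, against 11.9, 5.74 and 5.98 FPKM in WT. The libraries were interleaved, and the log2 fold change was 0.34 (95% interval -0.52 to 1.21, adjusted p = 0.651, limma). WT replicate 3 lay between the other WT libraries, and without it the value was 0.42 (adjusted p = 0.478).

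JAZ13, also on chromosome 10, was the second most abundant member at stage 10. It stood at 161, 276 and 265 FPKM in stage 10 ostie1-1, against 101, 94.1 and 473 FPKM in stage 10 WT. Here WT replicate 3 exceeded every other library of the series, while WT replicates 1 and 2 lay below all stage 10 ostie1-1 libraries. The log2 fold change was 0.61 (95% interval -0.82 to 2.05, adjusted p = 0.625, limma) with all libraries and 1.61 (adjusted p = 0.00260) without WT replicate 3. At stage 12 JAZ13 was at 67.8 and 67.7 FPKM in ostie1-1 and at 76.7, 82.0 and 41.9 FPKM in WT. These groups overlapped, with a log2 fold change of 0.43 (95% interval -1.18 to 2.04, adjusted p = 0.769).

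JAZ12, the third chromosome 10 member, varied widely among replicates. It stood at 3.81, 7.64 and 7.55 FPKM in stage 10 ostie1-1, against 1.60, 0.579 and 7.68 FPKM in stage 10 WT. At stage 12 it stood at 26.2 and 5.83 FPKM in ostie1-1, against 14.5, 1.11 and 15.0 FPKM in WT. Groups overlapped at both stages. The log2 fold changes were 1.17 (95% interval -0.77 to 3.12, adjusted p = 0.486, limma) at stage 10 and 1.05 (adjusted p = 0.570) at stage 12, with the widest intervals of the family. Without WT stage 10 replicate 3 the stage 10 value was 2.07 (adjusted p = 0.0734).

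JAZ5 and JAZ6, on chromosomes 4 and 3, were weakly expressed. JAZ5 stood at 2.37, 2.23 and 2.52 FPKM in stage 10 ostie1-1, against 1.10, 0.745 and 3.32 FPKM in stage 10 WT. JAZ6 stood at 1.83, 4.03 and 2.72 FPKM in stage 10 ostie1-1, against 0.350, 0.539 and 2.21 FPKM in stage 10 WT. For both genes WT replicate 3 overlapped ostie1-1 while WT replicates 1 and 2 lay below it. The log2 fold changes were 0.49 for JAZ5 (adjusted p = 0.519, limma) and 1.04 for JAZ6 (adjusted p = 0.271), and without WT replicate 3 they were 1.06 (adjusted p = 0.00549) and 1.58 (adjusted p = 0.0142).

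At stage 12, JAZ5 stood at 0.433 and 0.614 FPKM in ostie1-1, against 0.726, 0.737 and 0.757 FPKM in WT. These groups did not overlap in FPKM but did once scaled, and the log2 fold change was -0.05 (adjusted p = 0.960, limma). JAZ6 stood at 2.39 and 0.145 FPKM in ostie1-1, against 0.651, 0.557 and 0.413 FPKM in WT. The pair of ostie1-1 libraries bracketed the WT ones, and the log2 fold change of 0.47 did not pass (adjusted p = 0.646).

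JAZ7, on chromosome 7, was at most 0.184 FPKM in the ostie1-1 libraries and at most 0.187 FPKM in the WT libraries. It was listed at 0 in 4 libraries. Over all 11 libraries its main transcript model held as few as 22 fragments by the steps in the FPKM values, and it was tested in no comparison. JAZ7 has 3 transcript models and JAZ6 has 2, while each other member has 1. Of loci with several models 19.5% were tested, against 40.4% of those with 1. The part of this in the low JAZ7 level was not tested.

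The same steps place the smallest whole fragment numbers behind the other members at 12 to 91 per library for JAZ5, 5 to 134 for JAZ6, 14 to 726 for JAZ12, 12 to 1847 for JAZ11 and 35 to 734 for JAZ10. For JAZ8 they are 50 to 2354, for JAZ14 143 to 3985, for JAZ13 1056 to 13749 and for JAZ9 5018 to 45465. Counting error is thus widest for JAZ5, JAZ6 and the lowest JAZ11 and JAZ12 libraries. Relative depth by these steps spanned 0.914 to 1.17 of that of WT stage 10 replicate 1.

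Whether the genotype effect differed between stages was tested directly. None of the 9 members passed (limma), against 0.0188% of all loci (without WT stage 10 replicate 3 also none, against 0.0379% of loci higher and 0.0332% lower), and 1 member, JAZ14, had an unadjusted p below 0.05. For JAZ14 the effect was larger at stage 12 than at stage 10 by 1.59 on the log2 scale (SE 0.59, 95% interval 0.30 to 2.89, adjusted p = 0.693). For JAZ10 the difference was 1.60 (95% interval -0.20 to 3.40, adjusted p = 0.999), and for JAZ8 it was -0.11 (95% interval -1.58 to 1.36, adjusted p = 0.999). JAZ8 was called at both stages. JAZ10 and JAZ14 were called at stage 12 alone. The interval for JAZ10 holds changes in either direction, and the difference for JAZ14 did not pass after adjustment. A call at one stage and none at the other is thus not a shown difference between stages.

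The stage comparison asked how each gene differed between stage 12 and stage 10 anthers within a genotype. In ostie1-1 anthers JAZ9 and JAZ14 rose and JAZ8 and JAZ11 fell at stage 12, so 2 of 9 members were called higher against 7.78% of loci and 2 lower against 2.95%. In WT anthers JAZ14 rose and JAZ11 fell, 1 member in each direction, against 2.11% of loci higher and 0.512% lower. JAZ14 and JAZ11 thus moved the same way in both genotypes, whose means share no libraries. All 11 libraries enter the shared estimate of spread, so the tests in the genotypes are not independent.

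JAZ14 stood at 139.7 and 94.7 FPKM in stage 12 ostie1-1 anthers, against 11.4, 9.05 and 6.37 FPKM at stage 10. In WT it stood at 32.0, 30.2 and 54.5 FPKM at stage 12, against 11.9, 5.74 and 5.98 FPKM at stage 10. In neither genotype did the stages overlap. The log2 fold change was 3.56 (SE 0.44, adjusted p = 0.000975, limma) in ostie1-1, which passed in all 21 alternatives, and 1.97 (SE 0.39, adjusted p = 0.0282) in WT, which passed in 14 of 21. The WT call was lost without stage 12 WT replicate 1 (0.0502), 2 (0.0573) or 3 (0.152), without stage 10 WT replicate 2 (0.115) and without stage 10 ostie1-1 replicate 2 (0.0507). It was also lost with no filter on low values (0.0809) and with the WT libraries alone (0.0672).

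JAZ11 stood at 5.88 and 3.85 FPKM in stage 12 ostie1-1 anthers, against 26.5, 53.5 and 48.1 FPKM at stage 10. In WT it stood at 4.22, 1.27 and 0.367 FPKM at stage 12, against 9.01, 10.5 and 16.2 FPKM at stage 10. Stages were separate in both genotypes. The log2 fold change was -2.91 (SE 0.54, adjusted p = 0.00626, limma) in ostie1-1 and -2.47 (SE 0.48, adjusted p = 0.0269) in WT. The ostie1-1 call was lost without stage 12 ostie1-1 replicate 1 (0.0509), and the WT call, which held in 15 of 21, without stage 10 WT replicate 2 (0.0821) or stage 12 WT replicate 2 (0.0729) or 3 (0.143), with no filter on low values (0.0823) and with the WT libraries alone (0.101).

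JAZ9 had the opposite direction to JAZ11, its neighbour in the cluster. It stood at 1519 and 794 FPKM in stage 12 ostie1-1, against 197, 289 and 384 FPKM at stage 10, with no overlap and a fitted difference of 1.94 on the log2 scale (SE 0.41, adjusted p = 0.0123, limma). The call was lost without stage 12 ostie1-1 replicate 1 (0.124) and under quantile normalization (0.0623). In WT the values were 816, 906 and 1104 FPKM at stage 12 and 582, 464 and 209 FPKM at stage 10, also without overlap, and the fitted difference of 1.05 (SE 0.37) did not pass (adjusted p = 0.202).

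JAZ8 stood at 13.5 and 17.5 FPKM in stage 12 ostie1-1, against 33.6, 66.0 and 67.4 FPKM at stage 10. The log2 fold change was -1.76 (SE 0.50, adjusted p = 0.0452, limma), a call that held in 10 of 21 alternatives and rose to an adjusted p of 0.243 without stage 12 ostie1-1 replicate 1. It was also lost without the other stage 12 ostie1-1 replicate (0.101), stage 10 ostie1-1 replicate 2 (0.146) or 3 (0.125), stage 10 WT replicate 2 (0.0518) and stage 12 WT replicate 1 (0.0612) or 2 (0.0591). In WT, JAZ8 was lower at stage 12 in all libraries with a difference of -1.65 on the log2 scale (SE 0.44), which did not pass (adjusted p = 0.0877).

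On the log2 scale JAZ10 differed between stages by -0.20 in ostie1-1 (SE 0.61, adjusted p = 0.877, limma), and in WT by -1.80 (SE 0.55, adjusted p = 0.132), which did not pass. JAZ13 was at -1.77 (SE 0.73, adjusted p = 0.162) in ostie1-1 and -1.58 (SE 0.65, adjusted p = 0.297) in WT, and JAZ5 at -1.21 (adjusted p = 0.114) and -0.67 (adjusted p = 0.502). JAZ6 was at -1.01 in ostie1-1 and -0.44 in WT, and JAZ12 at 0.93 and 1.05, none of which passed.

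In ostie1-1 the FPKM values of JAZ9 and JAZ14 at stage 12 were all above those at stage 10, as for 24.4% of loci, and those of JAZ5, JAZ8, JAZ11 and JAZ13 all below, as for 20.1%. In WT JAZ9 and JAZ14 were all above, as for 13.1% of loci, and JAZ8, JAZ10, JAZ11 and JAZ13 all below, as for 6.75%. Without WT stage 10 replicate 3, the calls in ostie1-1 were 2 higher and 4 lower, with JAZ5 (adjusted p = 0.00358) and JAZ13 (0.00218) added, against 13.3% and 9.52% of loci. In WT they were again JAZ14 at 2.04 (0.0366) and JAZ11 at -2.04 (0.0416), against 1.93% and 0.521% of loci, while JAZ13 was at -0.59 (0.389).

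The makeup of the anthers also differed by stage. The tapetum and microspore genes summed to 5919 to 7570 FPKM in stage 12 ostie1-1, against 31295 to 78142 FPKM at stage 10, and to 2387 to 17634 FPKM in stage 12 WT, against 23895 to 32921 FPKM at stage 10. Most of each sum was RTS and C6, which averaged 46573 and 9028 FPKM in stage 10 ostie1-1 and 5479 and 1002 FPKM at stage 12. Of the 10 tested genes, 9 in ostie1-1 and 10 in WT had negative fold changes. In each genotype 1 was called lower (limma), against 2.95% of loci in ostie1-1 and 0.512% in WT. All 5 late pollen genes were tested, and they summed to 104 to 188 FPKM in stage 12 ostie1-1, against 11.9 to 21.6 FPKM at stage 10. In WT they summed to 235 to 650 FPKM at stage 12, against 13.0 to 129 FPKM at stage 10, the lowest being replicate 3. The part of these cell types in the stage differences of the JAZ genes was not tested.

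**Figure D4:**
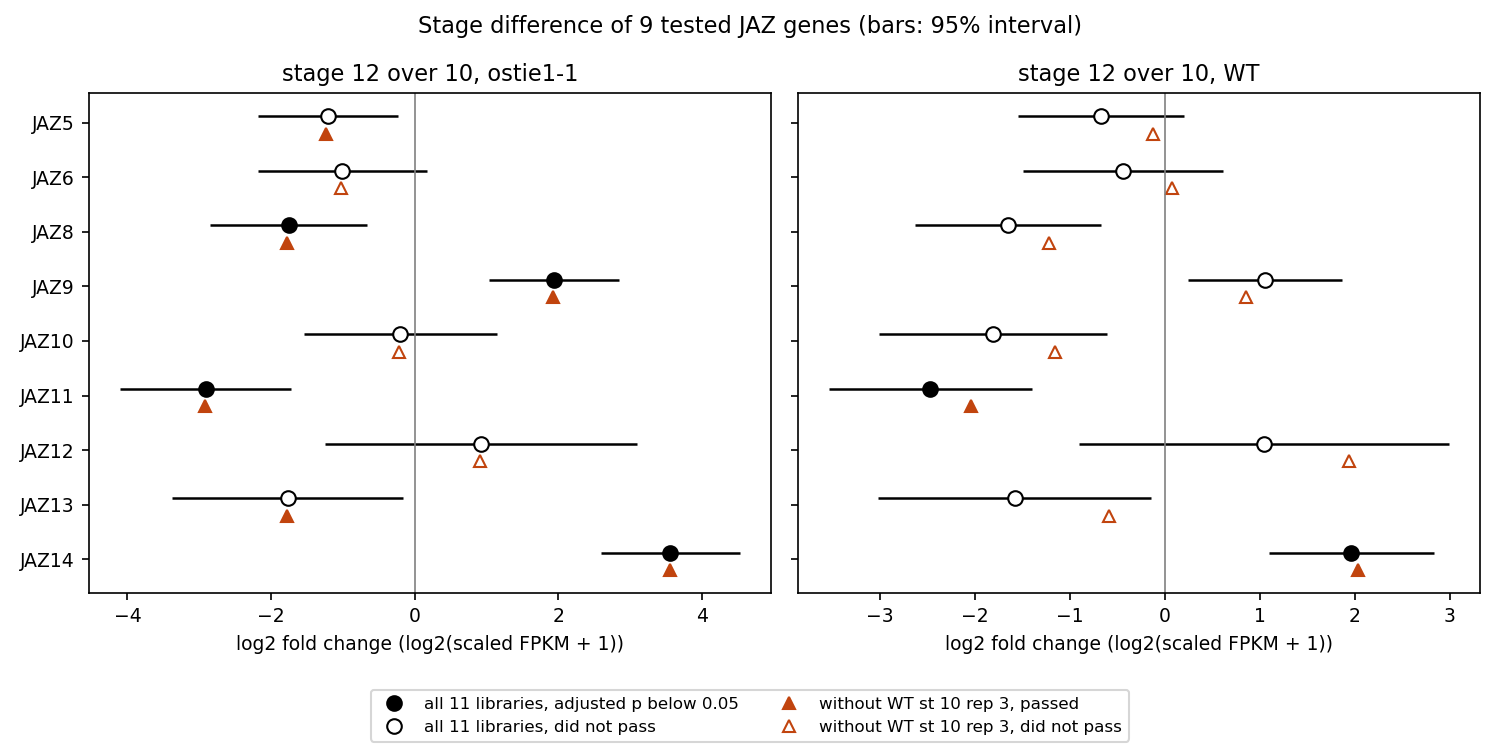
Log2 fold change of stage 12 over stage 10 for the 9 tested JAZ genes in ostie1-1 (left) and WT (right), with 95% intervals; filled marks passed at an adjusted p below 0.05, and triangles are values without WT stage 10 replicate 3. JAZ14 lies right of 0 and JAZ11 left of 0 in both genotypes, with and without that library.

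JAZ genes that lie together did not all move together between stages, as JAZ9 rose and JAZ11 fell in ostie1-1. Their genotype differences were not tested against each other. RefSeq lists JAZ9, JAZ11 and JAZ10 (TIFY11A, TIFY11C and TIFY11B) as successive genes of chromosome 3, in another assembly than the one the authors used, and JAZ12 and JAZ13 (TIFY11D and TIFY11E) on chromosome 10. At stage 12 the genotype difference of the 3 chromosome 3 genes was 0.59 for JAZ9, 1.44 for JAZ11 and 2.95 for JAZ10, and that of the chromosome 10 genes was 1.05 for JAZ12, 0.43 for JAZ13 and 1.94 for JAZ14. Of 29 other loci with nearby identifiers, 10 were tested, and 1 passed between ostie1-1 and WT at stage 10 (LOC_Os10g25340, lower in ostie1-1 at -2.38, adjusted p = 0.0426, limma) and 0 at stage 12. Over all loci, 2.9% passed in either direction at stage 10 and 3.52% at stage 12. Related copies can share reads, and how the authors treated such reads is not given in the sources used here, so levels of single cluster members carry that uncertainty.

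Centred log2 profiles over the 11 libraries show which genes varied alike, as a description over libraries that share groups. The root mean square difference was smallest between JAZ5 and JAZ6 (0.53), followed by JAZ5 and JAZ13 (0.59), JAZ8 and JAZ11 (0.61), JAZ6 and JAZ13 (0.73) and JAZ8 and JAZ10 (0.76), and it was widest, at 2.86, between JAZ11 and JAZ14. Outside the family, the nearest to JAZ8 were LOC_Os02g39500 (0.31) and LOC_Os03g05030 (0.32), to JAZ10 LOC_Os09g29270 (0.37) and LOC_Os01g32770 (0.38), and to JAZ14 LOC_Os10g30620 (0.32) and LOC_Os11g28610 (0.35). The profiles' own root mean square spread was 1.52 for JAZ8, 1.41 for JAZ10 and 1.49 for JAZ14.

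The rest of the jasmonate pathway was described by lists. Over all loci, 2.35% were called higher in ostie1-1 at stage 10 and 3.22% at stage 12, and 0.555% and 0.305% lower. Of 5 other JAZ genes, 2 were tested and 0 passed between genotypes at either stage (0 also at an unadjusted p below 0.05, limma). JAZ3 and JAZ4 were listed at 0 in all libraries, and both have 2 transcript models. Loci with several models were tested less often, so a listed 0 does not show that a gene was silent. Of 8 receptor, MYC2 and partner genes 4 were tested and 0 passed at either stage, although 3 at stage 10 and 2 at stage 12 had an unadjusted p below 0.05 (limma). The other 4 (COI1a, COI2, TPR1 and TPR3) were also listed at 0 in all libraries, and each has several transcript models. MYC2, the activator that JAZ proteins hold back, stood at 39.1, 30.2 and 25.0 FPKM in stage 10 ostie1-1, against 11.3, 9.09 and 21.7 FPKM in stage 10 WT. Its log2 fold change was 1.32 (adjusted p = 0.152) at stage 10 and 1.55 (adjusted p = 0.122) at stage 12. Without WT stage 10 replicate 3 the MYC2 value was 1.89 (adjusted p = 0.00149, limma) at stage 10 and 1.55 (adjusted p = 0.00823) at stage 12. In that setting 3 of the 4 tested genes of the list were called higher at stage 10, against 18.8% of all loci. At stage 12 there were 2, against 10.9% of all loci.

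Of 16 jasmonate synthesis and conjugation genes 8 were tested, and 1 rose at each stage, the lipoxygenase gene LOX LOC_Os04g37430. It stood at 17.3, 29.2 and 18.6 FPKM in stage 10 ostie1-1, against 1.88, 1.64 and 5.72 FPKM in stage 10 WT. The groups were separate, with log2 fold changes of 2.69 (SE 0.54, adjusted p = 0.0261, limma) at stage 10 and 2.62 (SE 0.61, adjusted p = 0.0405) at stage 12. The stage 10 call held in 13 of 21 alternatives (adjusted p up to 0.131, without ostie1-1 replicate 2) and the stage 12 call in 9 of 21 (adjusted p up to 0.195, without ostie1-1 replicate 1), and leaving out 1 library ended the call in 6 and 8 of 11 cases. The list's median was 0.46 at stage 10 and 1.15 at stage 12.

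Of 6 jasmonate-responsive genes 4 were tested, and 0 passed at stage 10, where 1 had an unadjusted p below 0.05, and 2 rose at stage 12. These were JAmyb, a jasmonate-induced MYB gene, and CPS2, a gene of phytoalexin diterpene synthesis. JAmyb stood at 21.9 and 18.6 FPKM in stage 12 ostie1-1, against 1.12, 1.27 and 3.53 FPKM in WT, a difference of 3.17 on the log2 scale (SE 0.57, adjusted p = 0.0125, limma). CPS2 stood at 7.75 and 2.88 FPKM in ostie1-1, against 1.50, 0.468 and 1.11 FPKM in WT, a difference of 1.77 on the log2 scale (SE 0.35, adjusted p = 0.0214). The JAmyb call held in 17 of 21 alternatives and was lost without either stage 12 ostie1-1 replicate (0.0773 and 0.0886) or WT replicate 2 (0.0578). The CPS2 call held in 16 of 21 and was lost without ostie1-1 replicate 1 (0.125) or WT replicate 2 (0.0886) or 3 (0.0509). Without WT stage 10 replicate 3, the synthesis list had 5 and the responsive list 1 called higher at stage 10, and 3 each at stage 12. Of all loci 18.8% were then called higher at stage 10 and 10.9% at stage 12.

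Marker lists of other tissues and floral organs were also set side by side for the genotypes. Of all loci 2.35% were called higher in ostie1-1 at stage 10 and 3.22% at stage 12, and 0.555% and 0.305% lower. The 5 stamen identity genes summed to 129 to 218 FPKM in stage 10 ostie1-1 and 64.6 to 77.6 FPKM in stage 10 WT, and to 99.6 to 116 FPKM in stage 12 ostie1-1 and 36.4 to 49.3 FPKM in stage 12 WT. Of its 3 tested genes MADS58 rose at stage 10 (2.69 on the log2 scale, adjusted p = 0.0414, limma) and MADS3 at stage 12 (1.65, adjusted p = 0.0252). The summed level of 6 pistil and glume genes was 60.2 to 123 FPKM in stage 10 ostie1-1 and 3.16 to 6.67 FPKM in stage 10 WT, and 47.2 to 50.6 FPKM in stage 12 ostie1-1 and 3.52 to 30.0 FPKM in stage 12 WT. In ostie1-1 nearly all of it was MADS6, at 97.8 ± 33.4 FPKM in stage 10 ostie1-1 and 2.75 ± 1.01 FPKM in stage 10 WT (SD, n = 3 each). DL, the defining pistil gene, and MADS14 were listed at 0 in every library. Both have 2 transcript models, and loci with several models were tested less often. Of the list's 2 tested genes, 1 was called higher at each stage (limma), and the other had a negative fold change at stage 12. The 10 green-tissue genes summed to 15.4 to 53.2 FPKM in stage 12 ostie1-1 and 135 to 178 FPKM in stage 12 WT. Of their 6 tested genes 0 passed at either stage (limma). Without WT stage 10 replicate 3, 2 were called lower at stage 10 and 4 at stage 12, against 14.9% and 5.65% of all loci. The summed level of 6 heat shock genes was 68.4 to 83.0 FPKM in stage 10 ostie1-1, against 27.6, 25.2 and 110 FPKM in stage 10 WT, and 203 and 139 FPKM in stage 12 ostie1-1, against 195, 14.2 and 11.7 FPKM in stage 12 WT. These sums overlapped at both stages, and 0 of the 6 genes passed at either (limma). Without WT stage 10 replicate 3, 2 were called higher at stage 10 and 3 at stage 12, against 18.8% and 10.9% of all loci. The WT library at 195 FPKM, replicate 1, had the highest JAZ8, JAZ10 and JAZ11 of its group in FPKM. Once scaled, JAZ8 was highest in WT replicate 2 (4.46, against 4.18 in replicate 1). Without replicate 1 the log2 fold changes were 2.29 for JAZ8 (adjusted p = 0.0731, limma) and 1.75 for JAZ14 (adjusted p = 0.114), against 2.12 and 1.94 with it, and JAZ10 still passed. The 3 reference genes had a median log2 fold change of 0.19 at stage 10 and 0.73 at stage 12. The part of these marker differences in the JAZ results was not tested.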

How the data were processed

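The authors deposited FPKM values for 66338 transcript models in 11 libraries. Per the submitters' processing notes, HISAT2 2.2.0, featureCounts and the IRGSP-1.0 genome were used; roles, strand setting, the treatment of shared reads and the FPKM denominator are not given in the sources used here. Library totals in reads are unknown.

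Models were summed per locus (55986 loci) and scaled by median-of-ratios factors (0.726 to 1.32). Loci with at least 1 FPKM in 2 libraries (21279) were tested on log2(value + 1) with limma 3.58.1 in R 4.3.3 (trended variance, 1 mean per group), with Benjamini-Hochberg adjustment over all of them. FPKM are not counts, so no count model was used. The fit was run on simulated data with planted changes, an equal spread for all genes below that of the real data, and no outlying library. That run checks the code and not the calls given here. In low FPKM values, steps of 1 fragment gave smallest whole fragment numbers. Of loci with several models, 19.5% were tested, against 40.4% of those with 1, and some common genes among the former are listed at 0.

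The members and lists were chosen with earlier results of these data known. Outside the members, the text names the 2 loci nearest in profile to each member called between genotypes, list genes called between genotypes, MYC2, markers and 1 neighbouring locus called; the MADS6, DL, MADS14 and JAZ15 values were singled out after they were seen. JAZ14 has no match in RefSeq by name, against 9 of 10 members that do. No sequence is shown. Alternatives covered scaling, pseudocount, filter, weights, transcript model, replicate block, libraries fitted and leaving out each library.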

Additional observations from a re-analysis of the deposited data

How the results depend on the processing

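Counts of called loci depended on the setting. For ostie1-1 over WT at stage 10 (618 loci), array quality weights gave 10803, a replicate block 331, the comparison's libraries alone 111, and leaving out 1 library 157 to 7118. At stage 12 (750), TPM gave 499, a pseudocount of 0.1 284, no filter 1166, weights 1607, the comparison's libraries alone 1774 (1322 higher, 452 lower) and leaving out 1 library 207 to 3497. For stage 12 over 10 in WT (558) the counts were 62 with no filter, 2774 with weights, 319 with the comparison's libraries alone and 9 to 596 leaving out 1 library, and in ostie1-1 (2282) 613 to 4811. For the difference between stages (4) they were 7 unscaled, 0 with TPM, 9 with quantiles, 0 with a pseudocount of 0.1 or 0.5, 193 with no filter, 49 with weights, 0 with the block and 0 to 15 leaving out 1 library. WT stage 10 replicate 3, with a weight of 0.107, gave the highest stage 10 count among settings that leave out a library (3964 higher, 3154 lower without it). The cause of these shifts was not tested.

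Of 933 alternative values for the members, 819 kept direction and side of the threshold, 64 lost a call, 22 gained one and 28 reversed, none of the 28 past the threshold in the full fit. Leaving out 1 library, JAZ5 at stage 12 spanned -0.18 to 0.067 and JAZ6 -0.32 to 1.26 between genotypes, JAZ6 -0.74 to 0.082 between WT stages, and JAZ10 -0.80 to 0.40 and JAZ12 -0.00088 to 1.86 between ostie1-1 stages. The differences between stages spanned -1.36 to 0.21 for JAZ6, -0.55 to 0.14 for JAZ8, -1.05 to 0.81 for JAZ12 and -1.19 to 0.33 for JAZ13. JAZ13 at stage 12 was -0.022 with TPM, and JAZ6 between WT stages 0.050 with weights. The difference between stages was 0.13 and 0.0064 for JAZ8 with a pseudocount of 0.1 and 0.5, and 0.16 for JAZ11 with 0.1. With the replicate block JAZ5 at stage 12 was 0.13, and the difference between stages 0.38 for JAZ12 and 0.076 for JAZ13.

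Same-numbered libraries did not deviate together (correlations of -0.47 to 0.12), so the numbers do not pair them, and the block is an added setting: JAZ8 then had an adjusted p of 0.0576 at stage 10 and 0.0813 at stage 12, and JAZ14 0.0665, and between stages JAZ8 had 0.107 in ostie1-1 and JAZ11 0.0518 in WT; the block ended no other member's call. Of the other list genes' alternative values, 92 kept direction and side, 29 lost a call, 4 gained one and 0 reversed. Unscaled FPKM and TPM moved the median of all loci to -0.13 and -0.20 at stage 10 and to -0.21 and -0.30 at stage 12. Depth limits JAZ7, JAZ5, JAZ6 and the lowest JAZ11 and JAZ12 libraries.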

Other observations

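JAZ15, a JAZ gene outside JAZ5 to JAZ14, differed by stage in both genotypes. It stood at 149 and 21.6 FPKM in stage 12 ostie1-1, against 0.0899, 0.929 and 11.9 FPKM at stage 10, with a log2 fold change of 4.37 (adjusted p = 0.0178, limma). In WT it stood at 118, 83.5 and 132 FPKM at stage 12, against 12.9, 1.89 and 3.67 FPKM at stage 10, with a log2 fold change of 4.04 (adjusted p = 0.0408). Without WT stage 10 replicate 3 the values were 4.38 (adjusted p = 0.0139) in ostie1-1 and 4.09 (adjusted p = 0.0748) in WT, so the WT call was lost. Stages did not overlap in either genotype, and the direction was that of JAZ14. JAZ2 was at most 11.5 FPKM in any ostie1-1 library and 2.98 FPKM in any WT library, and JAZ1 at most 0.0956 FPKM in ostie1-1 and 0.101 FPKM in WT.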
